A study of Mus musculus with 4 samples.

Results

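Oxidative phosphorylation is the process by which mitochondria pass electrons from NADH and succinate along complexes I to IV of the respiratory chain and use the resulting proton gradient to drive ATP synthase, complex V. The nuclear genes of this system were described here in mouse embryonic fibroblasts, primary connective-tissue cells grown from embryos, after knockdown of eIF1A, a factor that helps the small ribosomal subunit find the start codon. Members were taken by gene symbol, as all symbols that begin with Nduf, Sdha to Sdhd, Uqcr, Uqcc, Cox and a digit, Surf1 or Atp5, together with Cyc1, Cycs, Sco1 and Sco2. This choice was made with earlier results of these data known. The rule found 55 of the 4878 genes in the table. Of these, 15 encode core subunits, 32 encode supernumerary subunits and 8 encode assembly factors, and 27 belong to complex I, 3 to complex II, 7 to complex III, 8 to complex IV and 10 to complex V.

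Each complex is built from core subunits that carry out electron transfer or ATP synthesis and from supernumerary subunits that surround and stabilise them. Assembly factors help to join the parts or insert metal centres and then leave. The mitochondrial chromosome encodes part of the core subunits of complexes I, III and V and the core subunits of complex IV, while nuclear genes encode the other subunits and the assembly factors. None of the mitochondrially encoded genes was analysed here. Fibroblasts in culture draw on both glycolysis and oxidative phosphorylation for ATP.

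The knockdown libraries came from cells transfected with siRNA against eIF1A (2 libraries), and the controls from cells transfected with a negative control siRNA (2 libraries). The siRNA against eIF1A carries the label (X+18), which the labels do not explain. All cells were fibroblasts at passages 5-8, transfected with Lipofectamine RNAiMAX, and the labels name no genotype, strain or embryo age. Messenger RNA was taken up on oligo(dT) beads for bulk MARS-seq, a method in which reads are counted at the 3′ end of each mRNA. Values are the authors' normalised read counts, which are not divided by transcript length, so levels were compared between libraries and not between genes.

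The table held 2152331 and 2352111 reads in knockdown libraries 1 and 2, against 2182825 and 2595625 reads in control libraries 1 and 2. Median reads per gene were 143 and 173 in the knockdown libraries, against 120 and 139 in the controls. Libraries of a group differed by more than counting noise, and nothing in the labels says that they came from separate cultures, so p-values measure only the spread between these libraries. Eif1a and Eif1ax, the targets named by the label, were not analysed here, so the depth of the knockdown is not known. Of 15 fibroblast markers 6 were in the table, with Vim, Fn1, Sparc and Col5a1 among them, and their summed value was 14831 and 16416 in knockdown libraries, against 29668 and 26578 in controls. Of 27 markers of other cell types, the table held only Map2, a neuronal gene, at 5.65 and 10.9 in knockdown libraries, against 18.7 and 16.2 in controls. The part of the marker difference in the results below was not tested. In bulk samples, fewer cells of a type and less RNA per cell cannot be told apart.

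Coverage of the complexes was partial. The table held 5 of 7 nuclear core subunits of complex I and 19 of its 31 listed supernumerary genes, 3 of 4 subunits of complex II, and 2 of 2 nuclear core subunits of complex III. It held 4 of 19 supernumerary genes and isoforms of complex IV, and 5 of 9 core genes of ATP synthase. Assembly factors were covered least, with 3 of 9 for complex I, 1 of 3 for complex III, 4 of 13 for complex IV and 0 of 4 for complex II. All counts below speak of the genes present.

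Promoter sequences are shown for members that rose and for members that fell, so that the 2 directions can be set side by side. RefSeq windows on GRCm38.p6 run from 250 bases before to 50 bases after the gene start, and they were given for 46 of the 55 members. Capitals mark exact matches, on either strand, to GCGCANGCG, the core of the site of NRF1 (nuclear respiratory factor 1, a transcription factor known for activating respiratory chain genes), or to CGGAAG, the core of the site shared by ETS factors such as GABP. The first 2 genes rose and the other 3 fell.
Atp5h promoter, chr11:115419870-115420169, minus strand, NRF1 and ETS matches: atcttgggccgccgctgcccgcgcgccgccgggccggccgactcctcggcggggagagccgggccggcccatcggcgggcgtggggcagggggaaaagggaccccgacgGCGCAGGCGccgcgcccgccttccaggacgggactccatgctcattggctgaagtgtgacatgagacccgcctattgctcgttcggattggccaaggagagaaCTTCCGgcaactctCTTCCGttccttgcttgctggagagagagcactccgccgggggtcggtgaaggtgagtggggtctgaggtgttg
Atp5f1 promoter, chr3:105959214-105959513, minus strand, ETS match: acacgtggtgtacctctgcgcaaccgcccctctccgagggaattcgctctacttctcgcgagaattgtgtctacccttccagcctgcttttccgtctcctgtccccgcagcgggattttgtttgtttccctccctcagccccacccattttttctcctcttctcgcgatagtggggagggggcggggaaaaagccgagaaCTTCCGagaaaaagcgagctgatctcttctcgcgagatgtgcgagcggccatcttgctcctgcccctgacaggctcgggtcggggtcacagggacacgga
Uqcr11 promoter, chr10:80406772-80407071, minus strand, ETS and NRF1 matches: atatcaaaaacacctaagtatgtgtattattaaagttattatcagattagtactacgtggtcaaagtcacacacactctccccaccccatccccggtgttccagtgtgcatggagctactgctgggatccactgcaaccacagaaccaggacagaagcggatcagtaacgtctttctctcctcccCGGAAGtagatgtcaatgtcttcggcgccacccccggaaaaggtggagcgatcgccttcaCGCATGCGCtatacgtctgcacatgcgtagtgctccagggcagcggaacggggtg
Ndufb10 promoter, chr17:24724374-24724673, minus strand, NRF1 match: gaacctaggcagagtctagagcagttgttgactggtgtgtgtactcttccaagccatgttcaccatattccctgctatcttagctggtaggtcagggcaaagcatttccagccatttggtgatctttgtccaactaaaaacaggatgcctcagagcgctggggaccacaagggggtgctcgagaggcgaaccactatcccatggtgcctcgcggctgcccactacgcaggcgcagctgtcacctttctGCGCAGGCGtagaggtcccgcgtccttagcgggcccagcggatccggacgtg
Ndufv3 promoter, chr17:31519865-31520164, plus strand, no match: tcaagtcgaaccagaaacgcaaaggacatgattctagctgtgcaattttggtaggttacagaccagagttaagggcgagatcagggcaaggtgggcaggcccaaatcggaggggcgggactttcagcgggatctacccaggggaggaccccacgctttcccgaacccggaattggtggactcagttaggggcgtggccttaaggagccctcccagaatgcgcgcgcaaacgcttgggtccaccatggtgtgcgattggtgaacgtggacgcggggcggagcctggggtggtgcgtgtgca

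The NRF1 motif stood in 14 of 51 member windows (27.5%), against 15.7% of the windows of all tested genes and 6.25% of all windows in the RefSeq table. The ETS motif stood in 23 member windows (45.1%), against 34.3% of tested and 16.9% of all windows. AAGATGGCG, the core of the site of YY1, stood in 5 member windows (9.8%), against 3.58% and 1.4%. TGATGNAA, the core of the site of the stress factor ATF4, stood in 0 member windows, against 2.19% and 3.97%. Both strands were searched for all 4 motifs, and none of the 4 contains another. Matches were found in both directions of change. Of the 3 members called higher that had a window, 1 held the NRF1 motif and 2 held the ETS motif. Of the 5 members called lower, 2 held the NRF1 motif and 1 held the ETS motif. A match is a description of these letters and not evidence of binding.

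After eIF1A knockdown, most of the oxidative phosphorylation mRNAs changed little, and the few that moved went both ways. Of 54 members tested, 4 were called higher (Atp5f1, Atp5h, Ndufv2 and Cox6c) and 5 were called lower (Ndufv3, Atp5d, Ndufb11, Uqcr11 and Ndufb10). These were tested with limma on log2(value + 1) across all 4605 genes whose mean normalised count reached 5, at a Benjamini-Hochberg adjusted p under 0.05. Across all genes tested, 15.9% were called higher and 21.6% lower, against 7.41% and 9.26% of the members. Any call was made for 9 of 54 members (16.7%) and for 37.5% of all genes tested.

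The changes of the members were also smaller. The median size of a change, in either direction, was 0.31 on the log2 scale for members and 0.59 for all genes tested. A change of 2-fold or more was seen in 3 of 54 members (5.56%), which were Ndufv3, Atp5d and Ndufaf2, and in 25.5% of all genes tested. The median standard error was 0.25 for members and 0.27 for all genes, and the median value was 459 for members and 140 for all genes. Members and all genes were not matched for level, and the part of level in the smaller changes was not tested. The 95% confidence interval of the change lay wholly inside 2-fold for 32 of 54 members (59.3%), and for 32.1% of all genes tested. It did so for 11 of 15 core subunits, 17 of 32 supernumerary subunits and 4 of 7 assembly factors.

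Direction was balanced. The median log2 fold change was -0.01 over the members and -0.01 over all genes tested, with 27 members above 0 and 27 below. Both knockdown libraries lay above both controls for 13 members (24.1%) and for 32.4% of all genes. Both lay below both controls for 13 members (24.1%) and for 35.5% of all genes. The split of higher to lower calls moved with scaling. Scaling to equal library totals gave 17 members higher and 2 lower, and it moved the median of all genes to 0.34, with 1308 genes higher and 606 lower. Under equal totals the share of members called higher was not below that of all genes, whereas the share called lower was. Quantile normalisation gave 5 members higher and 1 lower (805 and 807 of all genes). TMM scaling gave 5 and 3 (796 and 893 of all genes).

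**Figure D1:**
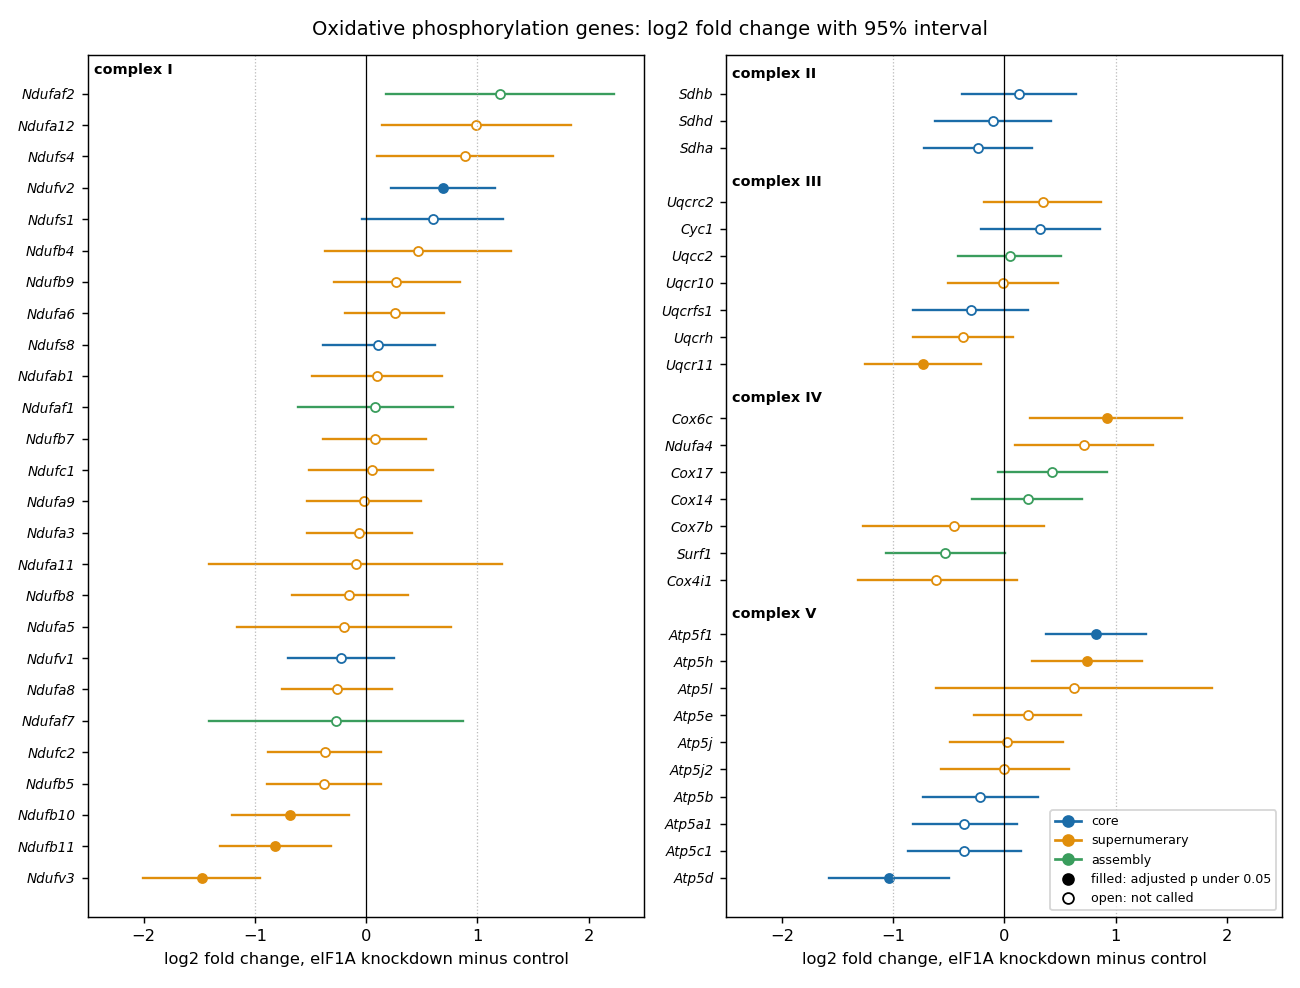
The log2 fold change (knockdown minus control) of 53 of the 54 tested members is plotted by complex, with the 95% confidence interval from limma and colour for core, supernumerary or assembly genes. Most intervals cross 0, and the called members lie on both sides in complexes I and V.

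By class, core subunits had a median log2 fold change of -0.20 (15 tested, 2 higher and 1 lower), supernumerary subunits -0.01 (32 tested, 2 higher and 4 lower) and assembly factors 0.08 (7 tested, 0 called, 1 at an unadjusted limma p under 0.05). By complex, the medians were -0.02 for complex I (27 tested, 1 higher and 3 lower), -0.10 for complex II (3 tested, 0 called) and -0.01 for complex III (7 tested, 0 higher and 1 lower). They were 0.21 for complex IV (7 tested, 1 higher and 0 lower) and 0.01 for complex V (10 tested, 2 higher and 1 lower). These counts stand beside 15.9% of all genes tested called higher and 21.6% called lower. To set subunits against assembly factors within each library, log2 values were taken as deviations from the mean of the 4 libraries. The median subunit minus the median assembly factor was -0.07 and -0.19 in knockdown libraries, against 0.15 and 0.03 in controls. The groups did not overlap. Among single genes, both knockdown libraries lay above both controls for 32.4% of all genes tested and below both for 35.5%. Those shares are not a background for a difference of set medians, for which none was computed. The values rest on 47 subunits and 7 assembly factors, whose median log2 fold changes were -0.02 and 0.08. With 2 libraries a group the difference was not tested.

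In complex I, the NADH module takes electrons from NADH, and its subunits did not move together. Ndufv2 (chr17:66078638-66101559, minus strand, mm10), the core subunit that carries an iron-sulphur cluster beside the NADH site, had normalised counts of 1015 and 766 in the knockdown libraries, against 482 and 621 in the controls. The groups did not overlap, and Ndufv2 was 1.61-fold higher (log2 fold change 0.69, SE 0.22, limma adjusted p = 0.0215). Ndufv3 (chr17:31520115-31531331, plus strand), a supernumerary subunit of the same module, had 599.8 and 325 in the knockdown libraries, against 1362 and 1122 in the controls. Its means were 463 ± 194 in knockdown and 1242 ± 169 in control (SD, n = 2 each), with no overlap. It was 2.79-fold lower (log2 fold change -1.48, SE 0.25, 95% interval -2.01 to -0.95, limma adjusted p = 0.00016), which was the largest change among the members tested.

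Within each library, the ratio of Ndufv2 to Ndufv3 counts was 1.69 and 2.35 in knockdown libraries, against 0.354 and 0.553 in controls, a ratio that library scaling cannot alter. This pair, like the other ratios given here, was chosen after its values were seen. It sets a gene called higher over one called lower and so restates those calls. Ndufv1, which binds NADH and FMN, had 2961 and 2377 in knockdown libraries, against 3480 and 2776 in controls (log2 fold change -0.23, 95% interval -0.70 to 0.25, limma adjusted p = 0.463). Its groups overlapped, and its interval lay inside 2-fold. The ratio of Ndufv1 to Ndufv2 counts, the pair that forms the NADH-binding head, was 2.92 and 3.1 in knockdown libraries, against 7.22 and 4.47 in controls. That ratio holds Ndufv2, which was called higher, and so is not separate from that call. The calls for Ndufv2 and Ndufv3 were not equally stable. The call for Ndufv2 was lost without knockdown library 1 (0.48, adjusted p = 0.226), without control library 1 (0.51, adjusted p = 0.123) and after removal of the trend with transcript GC content (0.15, adjusted p = 0.662), whereas Ndufv3 kept its call in all 17 settings tried.

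Further subunits on the NADH side of complex I lay above control without passing the test. Ndufs1, the large core subunit that holds several iron-sulphur clusters, had 75.1 and 118 in knockdown libraries, against 65.0 and 59.2 in controls (log2 fold change 0.60, 95% interval -0.04 to 1.23, adjusted p = 0.135). Ndufs4, a supernumerary subunit needed to hold the NADH module in place, had 44.4 and 44.8, against 20.7 and 26.8 in controls (0.89, adjusted p = 0.0696). Ndufa12, which joins late in assembly, had 75.9 and 36.0, against 31.5 and 21.1 in controls (0.99, adjusted p = 0.0613). In each of these 3 genes both knockdown libraries lay above both controls, as they did for 32.4% of all genes tested, and counts were low. Ndufv1 (-0.23) and Ndufv3 (-1.48), also on the NADH side, had negative log2 fold changes.

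In the arm that leads to ubiquinone, Ndufs8, a core iron-sulphur subunit, had 1916 and 1143 in knockdown libraries, against 1256 and 1489 in controls (log2 fold change 0.11, limma adjusted p = 0.752), and its groups overlapped. Its 95% interval ran from -0.39 to 0.62 on the log2 scale. Among supernumerary subunits around this arm, Ndufa5 had a log2 fold change of -0.20 (adjusted p = 0.769), Ndufa6 of 0.26 (0.377) and Ndufa9 of -0.02 (0.967).

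In the membrane arm of complex I, which pumps protons, 2 supernumerary subunits fell. Ndufb11 (chrX:20615326-20617619, minus strand) had 1230.2 and 800.2 in knockdown libraries, against 1530.4 and 1997 in controls, 1.76-fold lower without overlap (log2 fold change -0.82, SE 0.24, limma adjusted p = 0.0108). Ndufb10 (chr17:24722060-24724478, minus strand) had 1149.5 and 617 in knockdown libraries, against 1294 and 1404 in controls, 1.60-fold lower (-0.68, SE 0.25, adjusted p = 0.0408). In both genes knockdown library 2 was the lower of the pair. Both calls were lost without knockdown library 2, with log2 fold changes of -0.51 (adjusted p = 0.2) for Ndufb11 and -0.23 (adjusted p = 0.625) for Ndufb10. They were also lost under equal library totals (-0.46 and -0.33) and quantile normalisation (-0.39 and -0.33). The Ndufb10 call was lost in 9 of 17 settings, among them edgeR (adjusted p = 0.109), DESeq2 (adjusted p = 0.147) and TMM scaling (adjusted p = 0.079). The other membrane-arm genes with the Ndufb name were not called, with log2 fold changes of 0.47 for Ndufb4, -0.38 for Ndufb5, 0.08 for Ndufb7, -0.15 for Ndufb8 and 0.27 for Ndufb9. Ndufb8 had 2754 and 1602 in knockdown libraries, against 2070 and 2610.1 in controls, so that the spread within each group covered the difference between them. Ndufc1 and Ndufc2 had log2 fold changes of 0.05 and -0.37, Ndufa3, Ndufa8 and Ndufa11 of -0.06, -0.26 and -0.09, and Ndufab1, the mitochondrial acyl carrier protein, of 0.10.

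The assembly factors of complex I held the highest log2 fold change among the tested members, and it did not pass the test. Ndufaf2, a relative of Ndufa12 that occupies its place during assembly, had 44.4 and 24.5 in knockdown libraries, against 8.86 and 21.1 in controls (log2 fold change 1.20, SE 0.49, 95% interval 0.18 to 2.23, limma adjusted p = 0.0612). Control library 1 was the lowest of the 4. The value was 1.79 without control library 2 and 1.62 without knockdown library 2. It fell to 0.62 without control library 1 and to 0.79 without knockdown library 1. Ndufaf2 has exons of another gene on the opposite strand near its 3′ end, and it is not stated whether the counting used strand. Ndufaf1, which acts on an early membrane-arm intermediate, had a log2 fold change of 0.08, and Ndufaf7, a methyltransferase, of -0.27.

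Complex II, which oxidises succinate and links the chain to the citric acid cycle, showed no call. Sdha, the flavoprotein, had 191 and 205 in knockdown libraries, against 249.98 and 218 in controls (log2 fold change -0.24, limma adjusted p = 0.457). Sdhb, the iron-sulphur subunit, had 2331 and 1524, against 1454 and 2040.3 in controls (0.13, adjusted p = 0.717). Sdhd, a membrane anchor, had 209 and 173, against 172 and 239 in controls (-0.10, adjusted p = 0.798). For Sdhb and Sdhd the groups overlapped, and for all 3 genes the 95% interval lay inside 2-fold.

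In complex III, the core subunits were not called and 1 small supernumerary subunit fell. Cyc1, cytochrome c1, had 3683 and 1987 in knockdown libraries, against 2044 and 2286 in controls (log2 fold change 0.32, limma adjusted p = 0.352), with knockdown library 1 above the other 3. Uqcrfs1, the Rieske iron-sulphur protein, had 656 and 565, against 573 and 988 in controls (-0.30, adjusted p = 0.357). Uqcr11 (chr10:80402997-80406830, minus strand), whose product lies at the rim of the complex in the membrane, had 1011 and 609.98 in knockdown libraries, against 1112 and 1522 in controls. The groups did not overlap, with a 1.66-fold lower level (-0.73, SE 0.25, adjusted p = 0.0267). That call was lost without knockdown library 2 (-0.36, adjusted p = 0.392), without control library 2 (-0.50, adjusted p = 0.113) and in the count test of edgeR (-0.64, adjusted p = 0.06). Uqcrc2, Uqcrh and Uqcr10 had log2 fold changes of 0.35, -0.37 and -0.01. Uqcc2, an assembly factor for cytochrome b, had 2222 and 1754 in knockdown libraries, against 1735 and 2109 in controls (0.05, adjusted p = 0.896).

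In complex IV, cytochrome c oxidase, Cox6c was called and the ubiquitous Cox4i1 varied widely within its groups. Cox6c (chr15:35925886-35938246, minus strand), a supernumerary membrane subunit, had 113 and 89.0 in knockdown libraries, against 38.4 and 72.2 in controls, 1.89-fold higher without overlap (log2 fold change 0.92, SE 0.33, 95% interval 0.23 to 1.60, limma adjusted p = 0.0347). It was not called without control library 1 (0.47, adjusted p = 0.297), without knockdown library 1 (0.74, adjusted p = 0.206) or in DESeq2 (adjusted p = 0.0767), and Vps13b has exons on the opposite strand near its 3′ end. Ndufa4, first assigned to complex I and now known as a subunit of complex IV, had 84.0 and 119.6, against 57.1 and 64.1 in controls (0.72, adjusted p = 0.0638). Cox4i1 had 3285 and 1309.6 in knockdown libraries, against 2227 and 4482 in controls (-0.61, 95% interval -1.32 to 0.11, adjusted p = 0.177). Its replicates differed more than 2-fold in each group, and its interval covers both no change and a fall of more than 2-fold. Cox7b had a log2 fold change of -0.45 (adjusted p = 0.392).

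The assembly factors of complex IV were not called either. Cox17, the copper chaperone that feeds the copper centres, had 553 and 401 in knockdown libraries, against 306 and 398 in controls (log2 fold change 0.43, limma adjusted p = 0.159). Surf1, whose loss causes cytochrome c oxidase deficiency in humans, had 195 and 141, against 202 and 282 in controls (-0.53, adjusted p = 0.115). Its log2 fold change was -0.77 without control library 1 and -0.76 without knockdown library 1. It was -0.29 without control library 2 and -0.29 without knockdown library 2. Cox14, which takes part in the first steps of COX1 assembly, had a log2 fold change of 0.21 (adjusted p = 0.527). Cox16 was under the filter, with 4 and 8 reads in knockdown libraries, against 1 and 1 in controls. Its summed reads, scaled by the normalisation steps of the libraries, gave a knockdown to control ratio of 4.98. The exact 95% counting interval was 1.11 to 45.8, which covers counting error only. Gm20498, a protein-coding gene, has exons on the same strand near the 3′ end of Cox16. It is not stated how reads shared by these genes were counted.

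ATP synthase joins a catalytic head to a membrane rotor by a central stalk that turns and a peripheral stalk, the stator, that holds the head still. Both directions of change occurred in it. Atp5d (chr10:80138632-80145818, plus strand), the delta subunit of the central stalk, had 6234 and 3858 in knockdown libraries, against 10402 and 9756 in controls. Means were 5046 ± 1681 in knockdown and 10079 ± 457 in control (SD, n = 2 each), and the gene was 2.05-fold lower (log2 fold change -1.04, SE 0.26, limma adjusted p = 0.0039). Atp5f1 (chr3:105942698-105960099, minus strand), the b subunit of the stator, had 1137 and 992 in knockdown libraries, against 539 and 669 in controls, 1.77-fold higher (0.82, SE 0.21, adjusted p = 0.00528). Atp5h (chr11:115415689-115419962, minus strand), the d subunit that binds b in the stator, had 895 and 554, against 432 and 411 in controls, 1.67-fold higher (0.74, SE 0.24, adjusted p = 0.0192). None of these 3 genes overlapped between groups. Of all genes tested, 32.4% had both knockdown libraries above both controls and 35.5% had both below.

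Within a library, the ratio of Atp5f1 to Atp5d counts was 0.182 and 0.257 in knockdown libraries, against 0.0518 and 0.0685 in controls. The ratio of Atp5h to Atp5d was 0.144 and 0.144 in knockdown libraries, against 0.0415 and 0.0421 in controls. The ratio of Atp5b to Atp5a1, the 2 subunits of the head, was 2.97 and 3.14 in knockdown libraries, against 2.64 and 2.9 in controls. The ratios to Atp5d set a gene called higher over one called lower and so restate those calls, whereas neither head subunit was called. The call for Atp5d was lost without knockdown library 2 (-0.69, adjusted p = 0.0785), under quantile normalisation (-0.31, adjusted p = 0.341) and after removal of the GC trend (-0.42, adjusted p = 0.184). Without knockdown library 1, Atp5h had a log2 fold change of 0.40 (adjusted p = 0.354) and Atp5f1 of 0.72 (adjusted p = 0.0509).

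The head subunits were not called, although both knockdown libraries lay below both controls for alpha and beta, as they did for 35.5% of all genes tested. Atp5b, the catalytic beta subunit, had 9861 and 8595 in knockdown libraries, against 10361 and 11070.1 in controls (log2 fold change -0.22, 95% interval -0.73 to 0.30, limma adjusted p = 0.522). Atp5a1, the alpha subunit, had 3326 and 2735, against 3919 and 3823 in controls (-0.36, adjusted p = 0.22). Atp5c1, the gamma subunit of the central stalk, had 603 and 382, against 537 and 709 in controls (-0.36, adjusted p = 0.262), with overlap. The core genes of ATP synthase had a median of -0.36 over 5 genes. The 5 supernumerary ones had a median of 0.21 and no value below 0, with Atp5e, the epsilon subunit, at 0.21, Atp5j, the F6 subunit of the stator, at 0.02 and Atp5j2, the f subunit, at 0.00. Atp5l, the g subunit, had few reads, with values of 10.5 and 14.3 in knockdown libraries, against 7.87 and 7.30 in controls (0.63, adjusted p = 0.439).

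**Figure D2:**
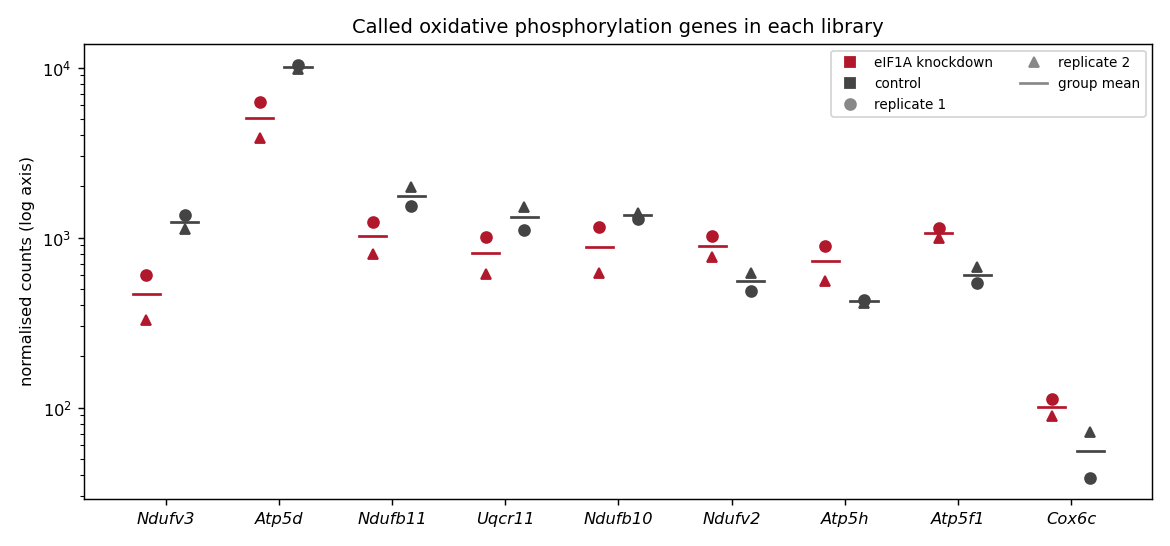
Normalised counts of the 9 called members are shown as points on a log axis, with the 2 knockdown libraries left of the 2 controls for each gene and a bar at each group mean. The groups do not overlap for any of these genes, which were chosen by their calls in the same libraries. Of all genes tested, 32.4% had both knockdown libraries above both controls and 35.5% had both below. On the log axis the knockdown libraries lie further apart than the controls for 7 of the 9 genes, Atp5f1 and Cox6c being the exceptions.

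Summed over its 10 members, complex V had 23449 and 18234 normalised counts in knockdown libraries, against 27218 and 27734 in controls. As a share of the library's total, this was 1.35% and 1.14% in knockdown libraries, against 1.27% and 1.32% in controls, so that the difference depended on the total used. Complex I summed to 20418 and 14172, against 18531 and 20179 in controls, and complex IV to 4776 and 2532, against 3199.6 and 5847 in controls. In both, the groups overlapped.

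The 54 tested members differed together between libraries of the same group. Knockdown library 1 exceeded knockdown library 2 in 44 of 54 members (81.5%), with a median log2 difference of 0.45, against 47.6% of all genes and a median of -0.03. Control library 1 was below control library 2 in 42 of 54 members (77.8%), with a median of -0.26, against 43.1% of all genes and a median of 0.08. Both held for 36 of 54 members (66.7%) and for 22.9% of all genes tested. All 7 tested assembly factors, from 3 complexes, followed both patterns. Among the 24 members with a mean value of at least 500, all 24 were higher in knockdown library 1 than in knockdown library 2, with a median of 0.64. Of all tested genes at that level, 67.7% were higher in knockdown library 1, with a median of 0.12.

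The same split followed transcript length across the whole table. Over the 195 tested genes with transcripts under 1000 bases, the median was 0.48 for knockdown library 1 minus 2 and -0.42 for control library 1 minus 2. Over the 1494 genes with transcripts of at least 4000 bases, the medians were -0.17 and 0.28. The members are short, with a median transcript of 1042 bases against 3088 for all genes tested. Members under 1000 bases (25 genes) had medians of 0.48 and -0.28, and the 29 longer members had 0.40 and -0.25. The part of transcript length in the shared shift was not tested.

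**Figure D3:**
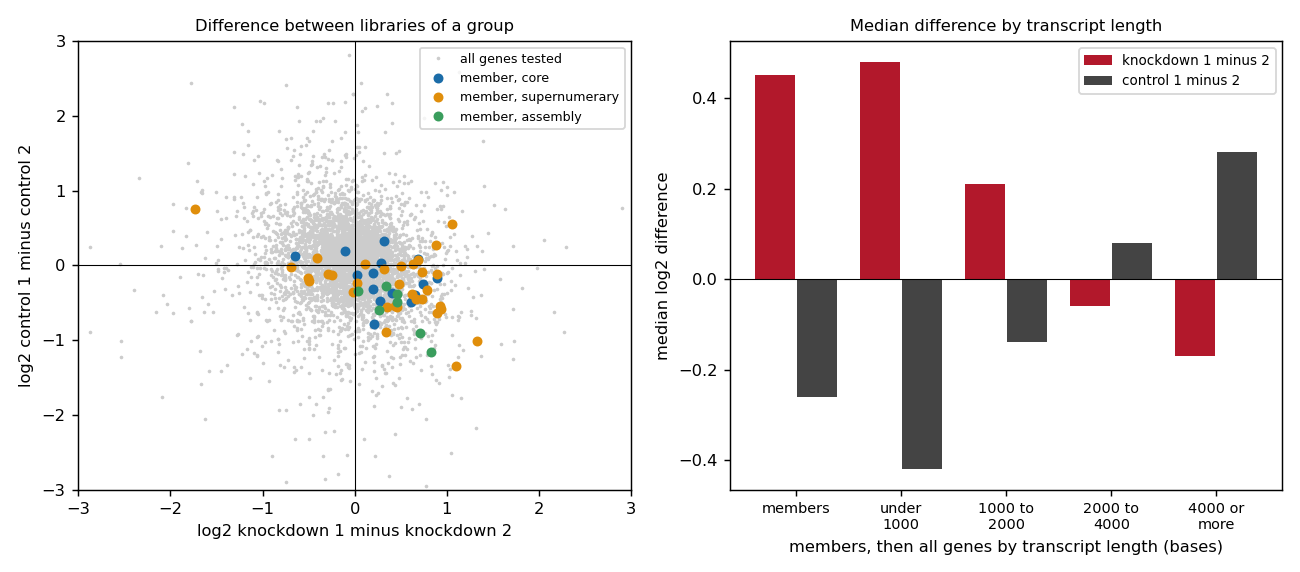
The left panel plots, for each gene, the log2 difference of knockdown library 1 minus 2 against that of control library 1 minus 2, with members coloured by class over all tested genes in grey; axes end at 3 on each side. The bars at right are the medians of both differences for the members and for all genes by transcript length, and members gather in the quadrant that short transcripts also occupy.

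Calls among the members depended on single libraries. Without knockdown library 1, limma called 0 members higher (3 at an unadjusted p under 0.05) and 6 lower (11.1%), against 10.6% and 17.2% of all genes in that fit, and the member median was -0.19. Without knockdown library 2, 9 were higher (16.7%) and 1 was lower (1.85%), against 9.67% and 15.7% of all genes, with a median of 0.18. Without control library 1, 3 were higher (5.56%) and 9 lower (16.7%), against 15.1% and 18.3% of all genes, with a median of -0.13. Without control library 2, 8 were higher (14.8%) and 4 lower (7.41%), against 16.5% and 21.5% of all genes, with a median of 0.16. The share of members called higher was above that of all genes without knockdown library 2 and below it in the other 3 fits. The sign of the member median changed with the library left out, and no direction is given for the members as a set.

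Called members of the 2 directions differed in base composition without overlap. Transcript GC content was 42.0% to 50.0% in the 4 members called higher and 52.5% to 59.3% in the 5 called lower, with a median of 50.8% over the members tested. The same order held over the table, where the median was 48.8% for genes called higher and 55.9% for genes called lower, against 51.4% for all genes tested. After the trend of fold change with transcript GC was removed, a setting added after the data had been seen, Ndufv3, Ndufb11 and Atp5f1 kept their calls and the other 6 called members did not. Ndufv3 then had a log2 fold change of -1.12, and Uqcr11 had -0.14 (limma adjusted p = 0.709). When the trend with GC content of the last 500 bases was removed instead, also added later, Ndufv3 (-1.0, adjusted p = 0.00436) and Atp5h (0.98, adjusted p = 0.0034) kept their calls. Ndufb11 (-0.46, adjusted p = 0.133) and Atp5f1 (0.50, adjusted p = 0.0819) then lost theirs, so the genes that passed depended on which GC content was used.

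**Figure D4:**
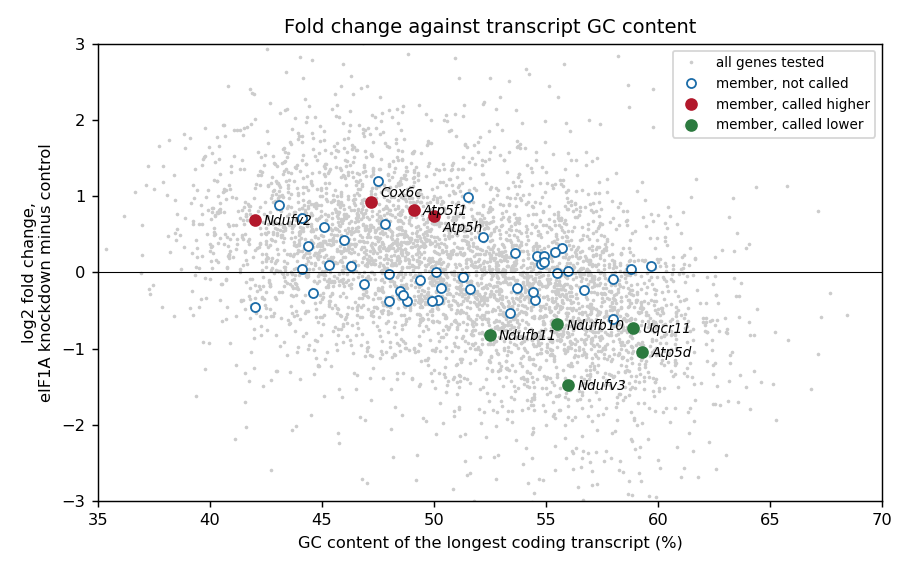
Log2 fold change (knockdown minus control) is plotted against transcript GC content in percent for all tested genes in grey, with the members in colour and the called members named; the vertical axis ends at 3 on each side. The members called higher lie at 42.0% to 50.0% GC and those called lower at 52.5% to 59.3%.

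Near copies elsewhere in the genome could share reads with 7 members. Annotated pseudogenes of at least 95% identity over 100 bases of the last 500 were annotated for Atp5f1, Atp5h, Cox6c, Ndufb11 and Uqcr11 among the called members, and for Atp5c1 and Atp5l, and their counts are uncertain to that extent. Of the 47 tested members without such copies, 1 was called higher (Ndufv2) and 3 lower (Ndufv3, Atp5d and Ndufb10). Over all genes tested, where copies were not searched for, 15.9% were called higher and 21.6% lower.

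**Figure D5:**
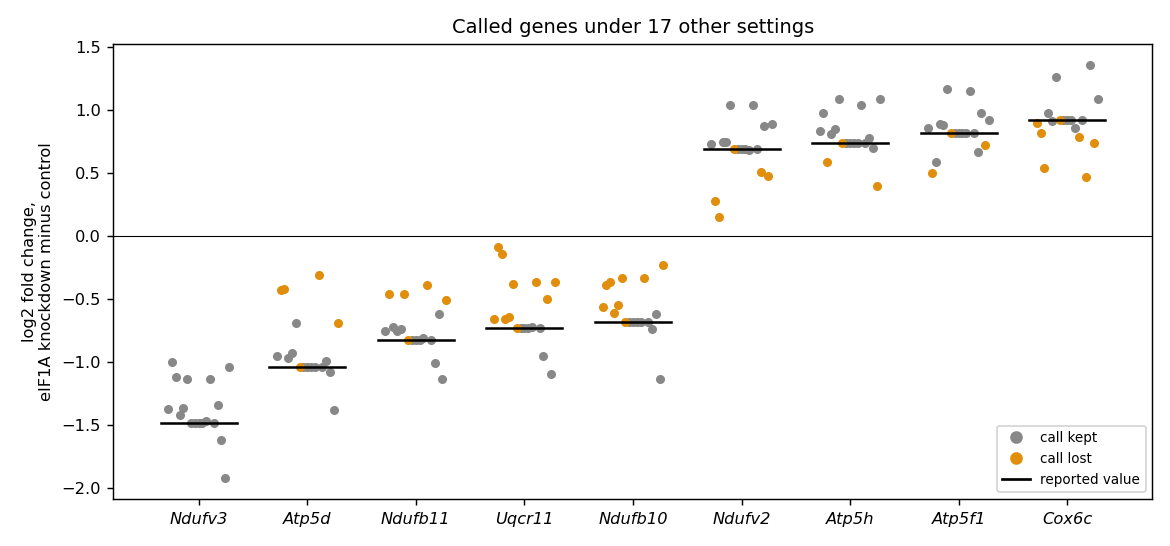
Each called member's log2 fold change is drawn as reported and under each of the 17 other settings, with the black bar at the reported value, grey points where the adjusted p stayed under 0.05 and orange points where it did not. All points of a gene stay on 1 side of 0, and of the 9 genes only Ndufv3 has no orange point.

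Genes that work beside the chain were taken from 5 lists of mitochondrial functions, whose counts stand beside the 15.9% of all genes called higher and the 21.6% called lower. Among 9 tested genes for assembly or ATP synthase control that the naming rule does not take in, 2 rose (22.2%) and 1 fell (11.1%), with a median log2 fold change of 0.38. Tmem126a, an assembly factor of complex I, had 131 and 101 in knockdown libraries, against 17.7 and 45.4 in controls, 3.94-fold higher (log2 fold change 1.98, limma adjusted p = 4.54e-04). Lrpprc, which stabilises mitochondrial mRNAs, had 98.5 and 141, against 27.6 and 34.9 in controls, 3.71-fold higher (1.89, adjusted p = 1.44e-04). Atpif1, the inhibitor that binds ATP synthase when it runs in reverse, had 546 and 261, against 671 and 1278 in controls, 2.45-fold lower (-1.29, adjusted p = 0.00276). The call for Atpif1 was not made by DESeq2 (adjusted p = 0.175), and its value without knockdown library 2 was -0.76.

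Of 16 tested genes of the citric acid cycle and pyruvate dehydrogenase, 2 rose (12.5%) and 1 fell (6.25%), both below the shares of all genes, with a median of 0.38. Idh2, the NADP-dependent mitochondrial isocitrate dehydrogenase, had 464 and 462 in knockdown libraries, against 2192 and 2308 in controls, 4.85-fold lower (log2 fold change -2.28, limma adjusted p = 9.65e-08). Idh3a, the catalytic subunit of the NAD-dependent enzyme that supplies NADH to complex I, had 144 and 124, against 43.3 and 59.2 in controls, 2.61-fold higher (1.38, adjusted p = 0.00102). Pdha1, of the pyruvate dehydrogenase complex, was 1.92-fold higher (0.94, adjusted p = 0.0167), a call lost without knockdown library 2 (0.67, adjusted p = 0.244) and without control library 1 (0.76, adjusted p = 0.0581). Of 5 genes of ubiquinone synthesis and other electron entry, 0 rose and 1 fell (20%). This was Sqrdl, which passes electrons from sulphide to ubiquinone (-0.93, adjusted p = 0.00917), not called without knockdown library 2 (-0.68, adjusted p = 0.151).

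Of 9 tested genes of mitochondrial carriers and cristae, 3 rose (33.3%) and 0 fell, with a median of 0.76. Chchd3, of the complex that shapes cristae junctions, had 535 and 476 in knockdown libraries, against 116 and 221 in controls, 3.14-fold higher (log2 fold change 1.65, limma adjusted p = 9.36e-05). Immt, the scaffold of the same complex, was 1.80-fold higher (0.85, adjusted p = 0.00594), and Phb, prohibitin, was 1.69-fold higher (0.76, adjusted p = 0.0105). Phb was not called without control library 1 (0.60, adjusted p = 0.0664) or without knockdown library 1 (0.57, adjusted p = 0.131). Of 7 tested transcription and mitochondrial DNA factors, 2 rose (28.6%) and 0 fell, with a median of 0.51. Nrf1, the factor whose motif is marked in the promoters, had 224 and 217 in knockdown libraries, against 120.1 and 144 in controls, 1.67-fold higher (0.74, adjusted p = 0.0214). Pprc1, a coactivator of respiratory genes, had 147 and 128, against 73.8 and 75.5 in controls, 1.82-fold higher (0.87, adjusted p = 0.0158). The Pprc1 call was lost without either knockdown library (0.77, adjusted p = 0.142, and 0.97, adjusted p = 0.0539), and the Nrf1 call without either of them (0.72, adjusted p = 0.114, and 0.76, adjusted p = 0.0965) or without control library 1 (0.61, adjusted p = 0.0825). Tmem126a, Lrpprc, Idh2, Idh3a and Chchd3 kept their calls in all 17 settings.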

How the data were processed

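The 4 bulk MARS-seq libraries were grouped by sample title. Values are the authors' deposited signal, normalised read counts per gene. How the factors were set is not stated in the labels. STAR, HTSeq, DESeq2, cutadapt 1.8.3 and bcl2fastq 2.17.1.14 are named, without roles, in the submitters' processing notes, with the build mm10. All values in the deposited signal were whole multiples of 1 step per library (100% within 0.01 read), so reads were recovered. No gene is at 0 in any library. The intervals of reads cover counting error only.

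Values were fitted as log2(value + 1) by limma 3.58.1 (R 4.3.3) with trend, over genes whose mean value reached 5 (4605 tested, 273 under the filter) and with Benjamini-Hochberg adjustment. Fold changes are on that scale, which understates changes of low genes. The count tests of edgeR 4.0.16 and DESeq2 1.42.0 on recovered reads were alternatives, beside other scalings, filters and pseudocounts, GC trends and leaving out each library. The main limma fit was tested on simulated counts with known changes, and the alternatives were not. The simulated counts were drawn for each gene separately, without the shift between libraries of a group described above. They therefore cannot say how the fit behaves under that shift.

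Members, roles and lists were chosen with earlier results of these data known. Named were all called members, all core subunits, the member of largest change in each complex and class, and up to 4 called genes of smallest adjusted p per other list; values of 1 core subunit are not reported here, although it enters the counts and medians; further members named in the text were chosen after their values were seen. Coordinates, transcript length, GC content, overlaps and near copies came from GENCODE M21 (mm10), where 4741 symbols matched directly, 131 through an older symbol and 6 not.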

Additional observations from a re-analysis of the deposited data

How the results depend on the processing

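Over the 17 settings run for each named gene, 9 of the 9 called members kept their sign and 1, Ndufv3, kept its call. Of the called members, only Ndufv3 was also called in limma without a trend. Atp5f1, Atp5h, Ndufv2 and Cox6c were not, so the 1 member called higher in that setting was a different gene. Of 15 named members not called, 11 changed sign in at least 1 setting, with 0 of these values past the threshold, among them Cyc1 (-0.12 to 0.77), Uqcc2 (-0.13 to 0.68), Ndufs8 (-0.26 to 0.65) and Atp5b (-0.32 to 0.44). The member median ranged from -0.19 to 0.35. Of the 15, 7 were called in at least 1 setting: Cyc1, Ndufaf2 and Ndufs1 under equal totals (0.68, 1.54 and 0.94), Uqcc2, Ndufs8 and Uqcrfs1 after removal of the GC trend of the last 500 bases (0.68, 0.65 and -0.68), and Surf1 without control library 1 (-0.77). Members called higher numbered 17 under equal library totals, 1 in limma without a trend and 8 at an adjusted p of 0.1, and ranged from 0 to 9 when single libraries were left out. Members called lower numbered 3 in DESeq2, edgeR and TMM scaling, 2 under equal totals, 1 in limma without a trend and under quantile normalisation, and 3 and 2 after the GC trend of the transcript and of its last 500 bases was removed, and ranged from 1 to 9 when single libraries were left out. Over all genes, 1308 were higher and 606 lower under equal totals, and 655 were lower without a trend. When single libraries were left out, all genes called higher ranged from 442 to 758. Causes were not tested.

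The labels do not say that replicate numbers mark a shared culture, and deviations of same-numbered libraries correlated at -0.129 across genes. With a replicate block, 4 members were higher and 5 lower (641 and 918 of all genes). With the numbers crossed in the block, a setting added after the data had been seen, 8 members were higher and 7 lower (891 and 1154 of all genes). The GC settings were also added then. With 2 libraries a group, changes of the low-count members could not be measured well: the standard error was 0.59 for Atp5l and 0.63 for Ndufa11.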
